A study of Rattus norvegicus with 134 samples.

Results

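Kidneys of heat-stressed rats taken 48 h after recovery were compared with kidneys of control rats of the same time point, by small RNA sequencing. The comparison held 4 heat kidneys (rats 305, 306, 307 and 309) and 5 control kidneys (rats 311, 312, 313, 314 and 318), which are 9 of the 77 libraries with values analysed here, out of 134 samples of the series, chosen by the tissue and time in their sample labels. All rats were of the Fischer 344 strain, 1 kidney library per rat. The heat-stressed rats had been warmed in an incubator to a core temperature of 41.8 °C, which the study calls T_c,max, and had then recovered in a cage at housing temperature. The sample labels keep the control rats out of the incubator whereas the methods of the study put them in one at room temperature, so that whether the incubator itself differed between the groups is not settled. The study saw lesions in some of the heat-stressed rats at 48 h but does not say which of these libraries they belong to, so that the heat kidneys form 1 group and are given by rat. The limma p-values and standard errors (SE) below rest on the spread between rats in all 29 kidney libraries, earlier time points included. Fits without rat 307 or with only the 48 h groups use fewer libraries. Exact permutation p-values compare only the rats of 48 h.

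A microRNA (miRNA) is a short RNA that guides the Argonaute protein to messenger RNAs through its seed, the bases 2 to 8 from its 5′ end, and lowers their translation and stability. A hairpin precursor is cut into a duplex with a 5p and a 3p arm, and usually 1 arm is kept. Whole kidney is mostly tubule epithelium: miR-192 and miR-194 are made in tubule cells, the miR-200 family (miR-200a, miR-200b, miR-141 and miR-429) keeps cells epithelial, the miR-10 family is encoded within the Hox clusters and is abundant in the nephron, and the miR-30 family is needed for nephron development. miR-126 marks endothelium, miR-143 and miR-145 smooth muscle, and miR-142, miR-150 and miR-451 blood cells. miR-21 is induced in many forms of kidney injury.

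The mature sequences of some miRNA described below are shown first (RefSeq, build GRCr8, 5′ to 3′). Of 185 names in the table, 108 had a mature sequence under the same name. The first set holds miRNA chosen by their values in these data, with miR-21-5p as the partner arm of miR-21-3p, and the capitals mark the seed. None of them was called with or without rat 307.
miR-31a-5p: aGGCAAGAugcuggcauagcug
miR-205: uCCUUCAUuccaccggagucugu
miR-141-3p: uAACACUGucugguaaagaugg
miR-182: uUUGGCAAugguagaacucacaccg
miR-21-3p: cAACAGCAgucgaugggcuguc
miR-21-5p: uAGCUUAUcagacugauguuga
miR-378a-3p: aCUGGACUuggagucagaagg
miR-9a-5p: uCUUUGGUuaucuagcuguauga
The 8 seeds all differ. The mature miR-31a-5p lies at chr5:108714906-108714927 on the minus strand and miR-205 at chr13:107564588-107564610 on the minus strand.

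The second set was chosen because closely related molecules parted in the library of rat 307, and the capitals mark each CA step (a cytosine followed by an adenine). It holds both arms of the miR-142 and miR-126a hairpins, a pair of let-7 members with the seed GAGGUAG, a pair of miR-30 members with the seed GUAAACA, and miR-10a-5p beside miR-192-5p, which are among the 5 most abundant names of the control kidneys.
miR-142-5p: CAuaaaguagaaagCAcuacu
miR-142-3p: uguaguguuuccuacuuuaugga
miR-126a-5p: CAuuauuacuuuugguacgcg
miR-126a-3p: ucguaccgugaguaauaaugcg
let-7d-5p: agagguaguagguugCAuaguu
let-7a-5p: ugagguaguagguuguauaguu
miR-30c-5p: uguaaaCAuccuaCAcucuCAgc
miR-30a-5p: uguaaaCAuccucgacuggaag
miR-192-5p: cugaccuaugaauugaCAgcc
miR-10a-5p: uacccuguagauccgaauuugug
The miR-142 arms lie 5′ to 3′ at chr10:73055119-73055139 and chr10:73055155-73055177 on the plus strand, and the miR-126a arms at chr3:29813182-29813202 and chr3:29813219-29813240 on the plus strand.

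The libraries held 532473 to 1768771 reads in heat kidneys and 1041847 to 2024041 reads in control kidneys, counted back from the value that a single read takes in that library, with rat 307 the lowest. All values below are log2(CPM + 1), where CPM is the count of a name scaled to 1 fixed library total, and a value of 0 means that the name is listed at 0 in that library. The kidney label was borne out by its markers. The 17 listed names of kidney epithelium summed to 458600 to 561700 CPM in heat kidneys and 455300 to 499500 CPM in control kidneys, whereas the 9 names of striated muscle summed to 101.4 to 189.4 CPM in heat kidneys and 141.9 to 199.9 CPM in control kidneys, and miR-1-3p was at 0 in all 9. Most of the epithelial sum was miR-10a-5p and miR-10b, which together took 53.0% of the library in rat 307. They took 35.9% to 37.9% in the other heat kidneys and 36.2% to 40.5% in control kidneys. The highest epithelial sum was that of rat 307, although its 17 names had a median of -3.17 relative to the control mean. The 6 names of stroma and smooth muscle summed to 30290 to 37300 CPM in heat kidneys and 30860 to 36690 CPM in control kidneys.

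The library of rat 307 stood apart from the others before any test. Across the 175 tested names its correlation with the control mean was 0.714, against 0.961 to 0.989 for the other 3 heat libraries and 0.976 to 0.995 for each control against the other controls (names are not independent replicates). In rat 307, 104 of 175 names lay more than 1 log2 unit below the control mean and 10 more than 1 unit above it. In the other heat libraries 4 to 10 names lay that far below and 1 to 3 that far above. The fits, counts and differences below are therefore given with and without this library.

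What parted the names in rat 307 followed their sequence, a pattern noticed after the data were seen and given as a description. Its cause was not tested. It was measured over 86 tested names that had a mature sequence and a control mean of at least 5, with 10 names that are antisense to another name left out. The 66 names with 1 or more CA steps lay at -8.70 to 0.93 relative to the control mean, with a median of -3.82, and 60 of them lay below it. The 20 names with no CA step lay at -0.29 to 1.55, with a median of 0.83, and 18 of them lay above it. The median was -1.98 for 26 names with 1 CA step, -4.68 for 23 names with 2, -5.23 for 13 names with 3 and -3.79 for 4 names with 4. The lowest value went down with each step up to 2 and no name with 3 or 4 steps lay within 1 log2 unit of the controls.

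**Figure D1:**
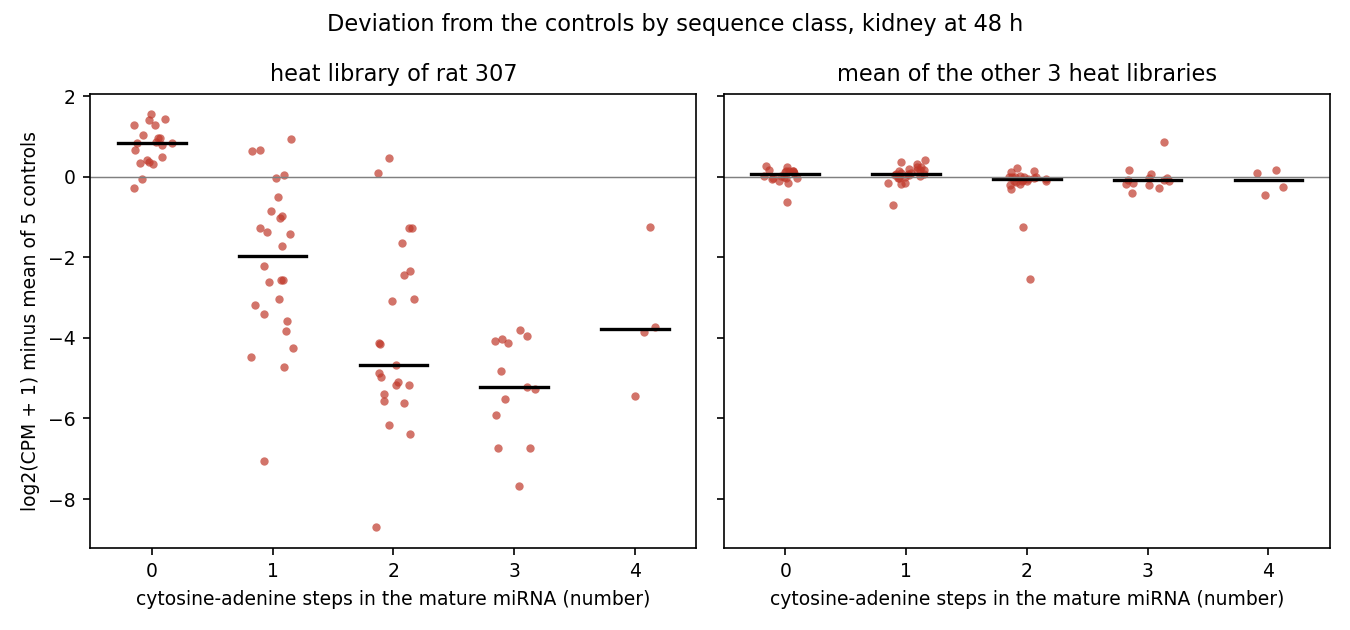
Each point is 1 of 86 miRNA in the kidney at 48 h, placed by its number of CA steps (cytosine followed by adenine) on the horizontal axis and by its log2(CPM + 1) minus the mean of the 5 controls on the vertical axis, with a bar at each class median. In the library of rat 307 (left) the 66 miRNA with the step have a median of -3.82 and the 20 without it a median of 0.83, whereas in the mean of the other 3 heat libraries (right) the medians are -0.02 and 0.06.

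Of the 16 possible steps of 2 bases, CA had the strongest correlation of its number with the deviation of rat 307, at -0.71 across the 86 names. AA followed at -0.45, and UG was the most positive at 0.42. The steps are not independent of each other, and related miRNA share sequence. Reducing the set to 1 name per seed left 49 names with the step at a median of -3.81 and 11 without it at 0.67. The names with and without CA had like G+C content, with medians of 46.6% and 44.5%, and like levels in control kidneys, with medians of 9.59 and 9.52. G+C content itself had a correlation of 0.05 with the deviation of rat 307, and between -0.13 and 0.02 in the other 3 heat libraries and -0.13 and 0.21 in the controls.

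The parting ran through some single hairpins. miR-142-5p, which has 2 CA steps and comes from a hairpin of blood cells, was at 0 in rat 307 and at 7.76 to 8.94 in the other heat kidneys, against 8.26 to 9.17 in controls. That 0 puts it at least 62.6-fold below the control mean, with 3 reads of the library as the floor. Its partner arm miR-142-3p, with no CA step, was at 6.83 in rat 307, against 5.25 to 6.15 in controls. In the same way miR-126a-5p, with 1 CA step, was at 5.58 in rat 307, against 11.97 to 12.92 in controls, and miR-126a-3p, with none, was at 11.54 in rat 307, against 10.49 to 11.20 in controls. The arms of let-7d parted too, with let-7d-5p (1 CA step) at -2.58 and let-7d-3p (none) at 0.96 relative to the control mean. Hairpins with a CA step in both arms were less uniform. miR-21-3p (3 steps) lay at -3.81 and miR-21-5p (1) at -1.42. miR-30a-3p (2 steps) lay at -4.15 and miR-30a-5p (1) at -1.02. miR-28-5p (2 steps) lay at -3.04 and miR-28-3p (1) at -0.50. The order was reversed for miR-203b, with the 5p arm (2 steps) at -3.34 and the 3p arm (1) at -4.25.

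It also ran through families that share a seed and so share much of their target sites. Of 8 names with the let-7 seed GAGGUAG, the 7 without a CA step lay 0.48 to 1.55 above the control mean in rat 307, and let-7d-5p, whose CA step lies outside the seed, was the exception. With the miR-30 seed GUAAACA, which holds a CA step in all members, miR-30a-5p and miR-30e-5p (1 step each) lay at -1.02 and -1.26 relative to the control mean, whereas miR-30c-5p (3 steps) lay at -7.67, with a value of 3.38 in rat 307, against 10.56 to 11.27 in controls. miR-99b-5p lay at -3.58 relative to the control mean and miR-100-5p, which shares the seed ACCCGUA and has no CA step, at -0.06. The 3 names with the seed CCCUGAG (miR-125a-5p, miR-125b-5p and miR-351-5p), none of them with a CA step, lay 0.31 to 1.27 above it.

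Among the most abundant kidney miRNA, miR-10a-5p and miR-192-5p parted by the same step, whereas miR-22-3p did not follow it. The other abundant names, miR-10b and miR-30a, had no mature sequence under the same name and were not classed. miR-10a-5p, without CA, took 24.8% of the library in rat 307, 16.8% to 18.5% in the other heat kidneys and 17.1% to 20.4% in control kidneys. miR-192-5p, with 1 CA step, took 0.511% in rat 307, 5.62% to 7.46% in the other heat kidneys and 4.18% to 7.61% in control kidneys. miR-22-3p, also with 1 CA step, took 14.2% in rat 307. It took 7.12% to 9.96% in the other heat kidneys and 5.9% to 8.68% in control kidneys. Since CPM is a share of all reads, a lower share of some names raises that of the others. The difference between the class medians, -4.65 in rat 307, does not depend on that scaling.

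Exceptions were few. Among the 66 names with a CA step, 6 lay above the control mean in rat 307: miR-22-3p at 0.93, miR-378a-3p at 0.67, miR-34c-5p at 0.63, miR-3548 at 0.46, miR-143-3p at 0.08 and miR-423-5p at 0.05. miR-221-3p lay at -0.04. The values of miR-3548 equalled those of miR-200a within 0.02 in all 9 libraries. Among the 10 antisense names left out, miR-3596c lay at 0.98, miR-3596a at 0.83 and miR-3557-5p at 0.66. miR-3596d at 0.33, miR-3588 at 0.28 and miR-126b at 0.24 also lay above the control mean. The rest of the 10 lay below it, at -6.12 to -1.65. The highest points, miR-3596c and miR-3596a, are complementary over at least 16 bases to let-7 members that have no CA step. Strand handling of the mapping is not given in the sources used here, so that such partners cannot be told apart.

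The difference between names with and without the step was small in the other libraries of 48 h. It was 0.06, -0.58 and 0.20 in the heat kidneys of rats 305, 306 and 309, against -0.56 in control rat 311 and 0.08 to 0.21 in the other 4 controls. Heat rat 306 and control rat 311 thus lay close together. At T_c,max, in other rats, all 5 heat kidneys had a difference of -0.59 to -0.30, against -0.09 to 0.24 in 5 controls, and the groups did not overlap. These heat libraries held 355221 to 1247747 reads and their controls 680596 to 1329684. All of these heat kidneys but rat 284 held fewer reads than every control. Whether the difference goes with read depth was not tested. At 24 h, 6 heat kidneys lay at -0.45 to 0.09, against -0.09 to 0.12 in 4 controls. No test was made of these differences, since the step was chosen on rat 307 after its values were seen.

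**Figure D2:**
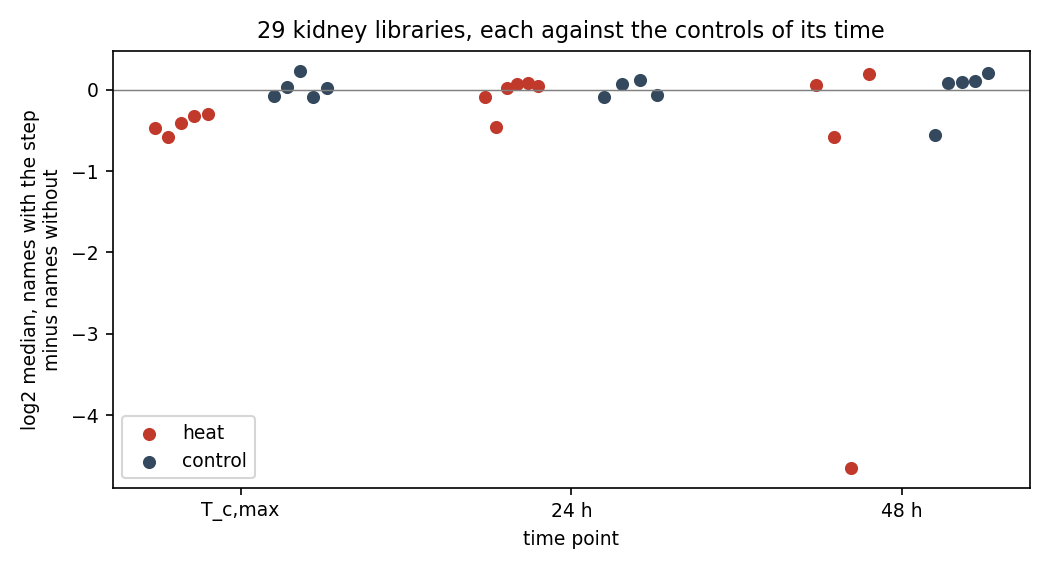
For each of 29 kidney libraries the vertical axis gives the median log2 deviation of the 66 miRNA with a CA step minus that of the 20 without, each against the controls of its own time point (a control against the other controls), with heat libraries left of controls at each time. Rat 307 lies at -4.65, the 5 heat libraries of T_c,max at -0.59 to -0.30, and every other library between -0.58 and 0.24.

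With all 9 libraries, limma called 0 of 175 names (0%) at a Benjamini-Hochberg adjusted p under 0.05 against the fold-change cutoff of the study, with the smallest adjusted p at 0.244. At an unadjusted p under 0.05 there were 29 of 175 names (16.6%), and all 29 were lower in heat kidneys. Without rat 307 limma again called 0 of 175 (0%), with 6 names (3.43%) at an unadjusted p under 0.05, of which 5 were lower and 1 was higher. limma's voom on the recovered reads also called 0, with 22 names at an unadjusted p under 0.05 with all 9 libraries and 8 without rat 307. With only the 48 h groups in the fit limma called 0 as well. It then had 6 names at an unadjusted p under 0.05 with all 9 libraries and 7 without rat 307. The smallest limma adjusted p of these fits was 0.7236 and 0.3191. The median log2 difference over all names was -0.43 with rat 307 and -0.01 without it. Exact two-sided permutation tests of each name had a smallest possible p of 0.00794 with 4 against 5 rats and of 0.0179 with 3 against 5, and after adjustment over the 175 names the smallest were 0.370 and 0.521.

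With all 9 libraries, 3 of 175 names (1.71%) were lower in every heat kidney than in every control kidney, miR-31a-5p, miR-182 and miR-451, and 0 (0%) were higher in every heat kidney. Without rat 307, 4 names (2.29%) were lower in every heat kidney, these 3 and miR-9a-5p, and 3 (1.71%) were higher, miR-21-3p, miR-378a and miR-3557. The values of miR-3557 equalled those of miR-378a within 0.02 in all 9 libraries, so that they are 1 observation. With so few rats some names separate by chance, and whether these shares exceed that was not tested.

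**Figure D3:**
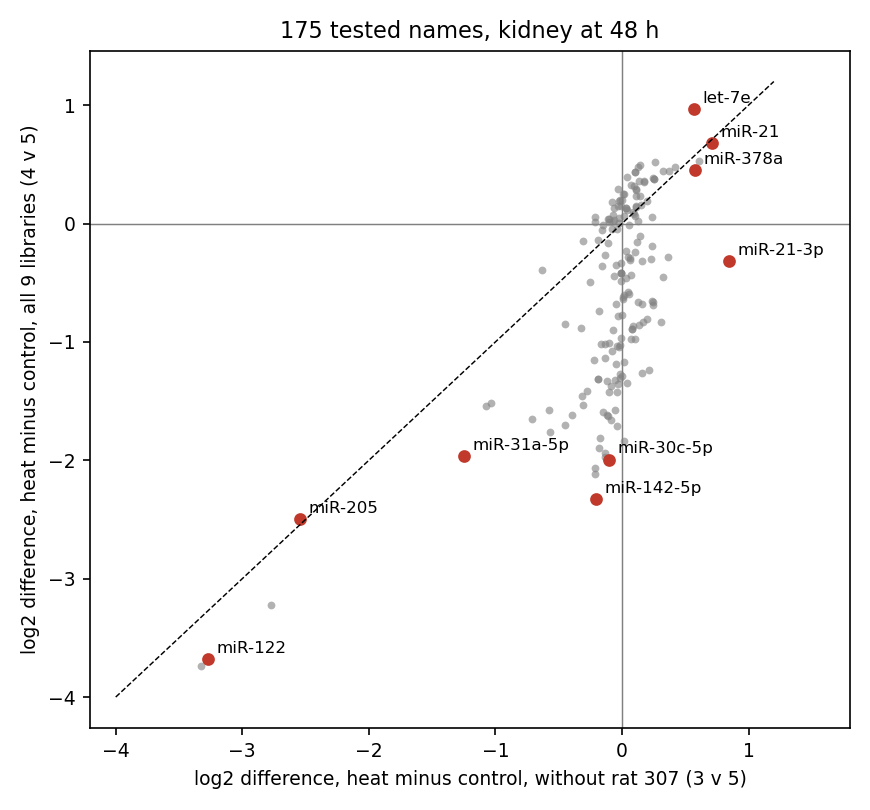
Each point is 1 of 175 tested names in the kidney at 48 h, with the log2 difference of heat minus control on the vertical axis for all 9 libraries and on the horizontal axis without rat 307, and the dashed line marks equal values. miR-205 and miR-122 lie near the line, whereas miR-142-5p and miR-30c-5p lie at -2.33 and -1.99 with rat 307 and at -0.21 and -0.10 without it.

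Apart from miR-122 and its partners, the 5 lowest differences without rat 307 were those of miR-205, miR-31a-5p, miR-31a, miR-31b and miR-141-3p, at -2.55 to -0.71. The 17 listed names of kidney epithelium as a whole did not share them, with 12 lower and 5 higher with rat 307 (median -0.66), 8 lower and 9 higher without it (median 0.08), and 0 called by limma in either fit. miR-31a-5p, a miRNA of epithelial cells, was at 5.42, 6.12, 3.09 and 6.34 in the heat kidneys of rats 305, 306, 307 and 309, against 7.50, 7.59, 6.63, 7.33 and 7.01 in the control kidneys of rats 311, 312, 313, 314 and 318. Every heat kidney lay below every control. The difference was -1.97 (SE 0.49; limma adjusted p = 0.244, exact permutation p = 0.00794, the smallest it can be) with all 9 libraries, and -1.247 (SE 0.38; limma adjusted p = 1.0, exact permutation p = 0.0179, the smallest it can be) without rat 307. The arm-less names miR-31a and miR-31b differed from each other by at most 0.08, and both overlapped between the groups, with miR-31a at 3.09 to 5.24 in heat kidneys and 4.84 to 6.88 in control kidneys.

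miR-205, a miRNA of basal and stratified epithelia that represses the factors Zeb1 and Zeb2, was at 7.19, 4.42, 6.51 and 7.31 in heat kidneys, against 10.07, 10.53, 6.77, 8.95 and 7.93 in control kidneys. It has 2 CA steps, yet rat 307 lay within the range of the other heat kidneys. Control rat 313 overlapped the heat kidneys. The difference was -2.49 (SE 1.249) with all 9 libraries and -2.55 (SE 1.31) without rat 307, with limma adjusted p = 0.260 and 1.0.

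miR-141-3p, of the miR-200 family, was at 9.11, 9.02, 5.47 and 9.54 in heat kidneys, against 10.43, 10.31, 8.96, 9.99 and 9.99 in control kidneys. The difference was -1.65 (SE 0.52) with rat 307 and -0.71 (SE 0.29) without it. The same control, rat 313, was the lowest of the 5 controls for miR-31a-5p, miR-31a, miR-205 and miR-141-3p. The other members of the family did not share the size of this difference. Without rat 307 the 5 tested names of the miR-200 family were all lower, at -0.71 to -0.06, with a median of -0.13. In rat 307 miR-200b-3p and miR-429 lay at 11.87 and 11.93, above their control maxima of 11.39 and 11.51, and miR-200a-3p lay at 9.38, below its control minimum of 9.62.

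miR-182, from a cluster known for its role in sensory epithelia, was at 12.35, 12.17, 7.44 and 12.45 in heat kidneys, against 12.87, 12.95, 12.66, 12.60 and 12.53 in control kidneys. The groups did not overlap, but rats 305 and 309 lay less than 0.2 below the lowest control. The difference was -1.62 (SE 0.59) with rat 307 and -0.40 (SE 0.15) without it.

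**Figure D4:**
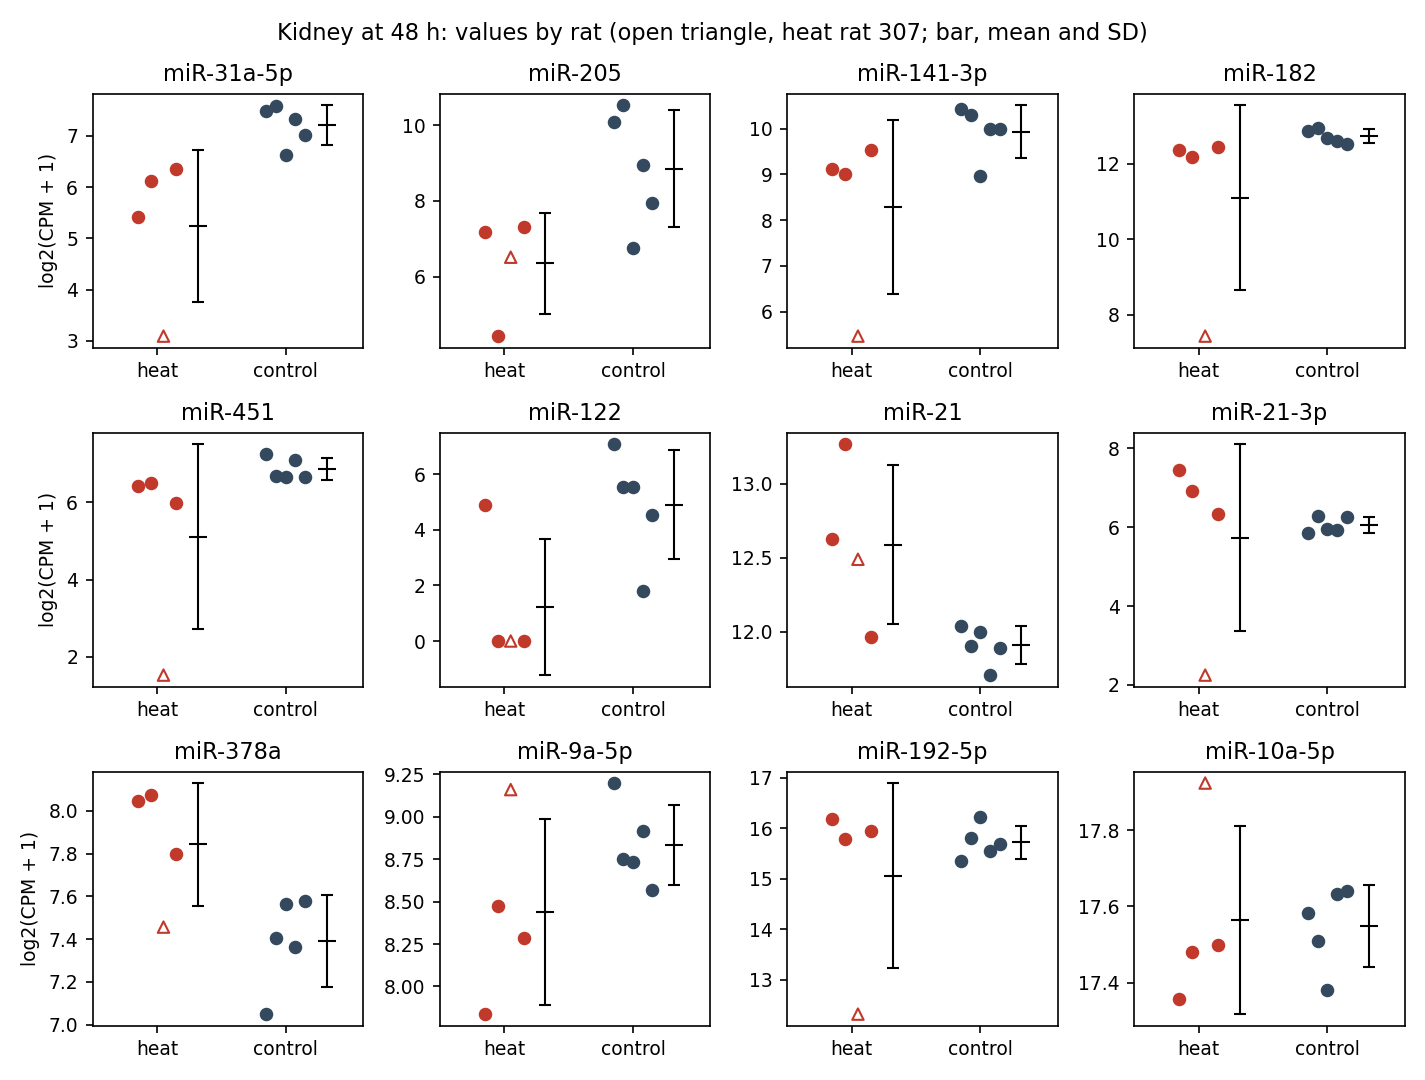
Values of 12 miRNA in each kidney library at 48 h, as log2(CPM + 1), with 4 heat kidneys left of 5 control kidneys, rat 307 as an open triangle, and bars for the mean and SD. miR-31a-5p, miR-182 and miR-451 are lower in every heat kidney than in every control, and rat 307 lies at 3.09, 7.44 and 1.53 there, whereas for miR-205 it lies at 6.51, inside the range of the other heat kidneys.

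The tubule miRNA miR-192-5p and miR-194-5p were far below the controls in rat 307. miR-192-5p was at 16.19, 15.78, 12.32 and 15.95 in heat kidneys, against 15.35, 15.81, 16.22, 15.54 and 15.70 in control kidneys. miR-194-5p, encoded next to it on chromosome 1 at 1 of its 2 loci, was at 10.87, 9.98, 4.87 and 10.80 in heat kidneys, against 10.01, 10.68, 10.58, 10.33 and 10.37 in control kidneys, so that rat 306 too lay just below the lowest control. The differences with rat 307 were -0.66 (SE 0.44) for miR-192-5p and -1.26 (SE 0.68) for miR-194-5p. Without rat 307 all 4 names of miR-192 and miR-194 were higher in heat kidneys, by 0.13 to 0.32, and none of the 4 was called. The miR-30 family had 12 of 13 names lower with rat 307 (median -0.46), and 8 of 13 without it (median -0.03).

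miR-21, which is raised in injured kidneys in rodents, is listed under 3 names that differed in direction with rat 307. The arm-less miR-21 was at 12.63, 13.27, 12.49 and 11.97 in heat kidneys, against 12.04, 11.90, 12.00, 11.71 and 11.89 in control kidneys, so that 3 of 4 heat kidneys lay above every control and rat 309 lay within them. Its difference was 0.68 (SE 0.27) with rat 307 and 0.71 (SE 0.28) without it, with limma adjusted p = 0.296 and 1.0. The guide arm miR-21-5p was at 13.09, 13.10, 11.44 and 12.58 in heat kidneys, against 13.34, 12.84, 12.51, 12.80 and 12.79 in control kidneys, with a difference of -0.31 (SE 0.24) with rat 307 and 0.07 (SE 0.18) without it. The passenger arm miR-21-3p, which has 3 CA steps, was at 7.45, 6.92, 2.25 and 6.34 in heat kidneys, against 5.85, 6.29, 5.95, 5.93 and 6.26 in control kidneys. Its difference was -0.32 (SE 0.59) with all 9 libraries and 0.85 (SE 0.24; limma adjusted p = 1.0, exact permutation p = 0.0179, the smallest it can be) without rat 307. It was the 1 name that was higher at an unadjusted limma p under 0.05 without rat 307.

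The metabolic miRNA miR-378a, which lies within the gene of the mitochondrial coactivator PGC-1β, was at 8.05, 8.07, 7.46 and 7.80 in heat kidneys, against 7.05, 7.41, 7.56, 7.36 and 7.58 in control kidneys. Its difference was 0.45 (SE 0.16) with rat 307 and 0.58 (SE 0.16) without it. The mature arm miR-378a-3p was at 12.08, 12.42, 12.34 and 11.76 in heat kidneys, against 11.49, 11.66, 11.83, 11.72 and 11.64 in control kidneys, so that 3 of 4 heat kidneys lay above every control, with a difference of 0.48 (SE 0.13) with rat 307 and 0.42 (SE 0.13) without it. The 4 listed names of miR-22 and miR-378a were all higher with and without rat 307, with medians of 0.41 and 0.30, against -0.43 and -0.01 over all names, and none of the 4 was called.

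Of the miRNA of other cell types, miR-451, made in red blood cell precursors, was at 6.44, 6.49, 1.53 and 5.99 in heat kidneys, against 7.26, 6.68, 6.67, 7.10 and 6.66 in control kidneys. The groups did not overlap, and the difference was -1.76 (SE 0.68) with rat 307 and -0.57 (SE 0.42) without it. miR-150-5p, a miRNA of mature lymphocytes, was at 8.09, 7.47, 4.00 and 8.48 in heat kidneys, against 8.29, 8.62, 8.67, 8.81 and 8.56 in control kidneys, with a difference of -1.58 (SE 0.53) with rat 307 and -0.57 (SE 0.26) without it. Summed, the 5 names of blood cells (miR-142, both its arms, miR-150-5p and miR-451) came to 210.3 CPM in rat 307 and 797.2 to 1502 CPM in the other heat kidneys, against 1255 to 1679 CPM in control kidneys. In whole tissue, fewer cells of a type and less RNA per cell cannot be told apart. All 5 names were lower without rat 307, with a median of -0.32.

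miR-122, the dominant miRNA of hepatocytes, was at 4.91 in the heat kidney of rat 305 and at 0 in rats 306, 307 and 309, against 7.09, 5.54, 5.56, 1.795 and 4.54 in control kidneys. Its antisense partner miR-3591 and its mature arm miR-122-5p had like values. The 4 names of this list summed to 0 to 83.88 CPM in heat kidneys and 4.941 to 431.0 CPM in control kidneys, and the groups overlapped. The difference of miR-122 was -3.68 (SE 1.29; limma adjusted p = 0.260) with all 9 libraries and -3.27 (SE 1.35; limma adjusted p = 1.0) without rat 307. miR-9a-5p, known from the nervous system and without a CA step, was at 7.84, 8.47, 9.16 and 8.29 in heat kidneys, against 9.20, 8.75, 8.73, 8.92 and 8.57 in control kidneys. Its difference was -0.39 (SE 0.23) with rat 307 and -0.63 (SE 0.21) without it. It was the only name lower in every heat kidney but rat 307 that overlapped once rat 307 was added.

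Families were described by their counts, beside the 175 names, of which 116 were lower and 59 higher with rat 307, and 93 lower and 82 higher without it. With rat 307 the hepatocyte list had a median of -3.68, miR-182 alone was at -1.62 and the blood cell names had a median of -1.58. Low medians were also those of miR-26 at -1.64 (4 of 4 names lower) and of miR-16, miR-195 and miR-497 at -1.57 (4 of 4 lower). Next came miR-23, miR-27 and miR-24 at -1.27 (9 of 9 lower) and miR-17, miR-19b, miR-25, miR-92 and miR-93 at -0.85 (7 of 7 lower). The let-7 family had 15 of 16 names higher (median 0.21). Without rat 307 these medians were -0.10, -0.01, -0.10, -0.12 and 0.03. No list had a name called in either fit. The list of kidney injury miRNA, which the study chose on these samples and which is thus not independent evidence, has 25 names, of which 18 were tested and the other 7 were not analysed here. These 18 had a median of -1.20 with rat 307 (12 lower and 6 higher) and of -0.10 without it (15 lower and 3 higher).

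**Figure D5:**
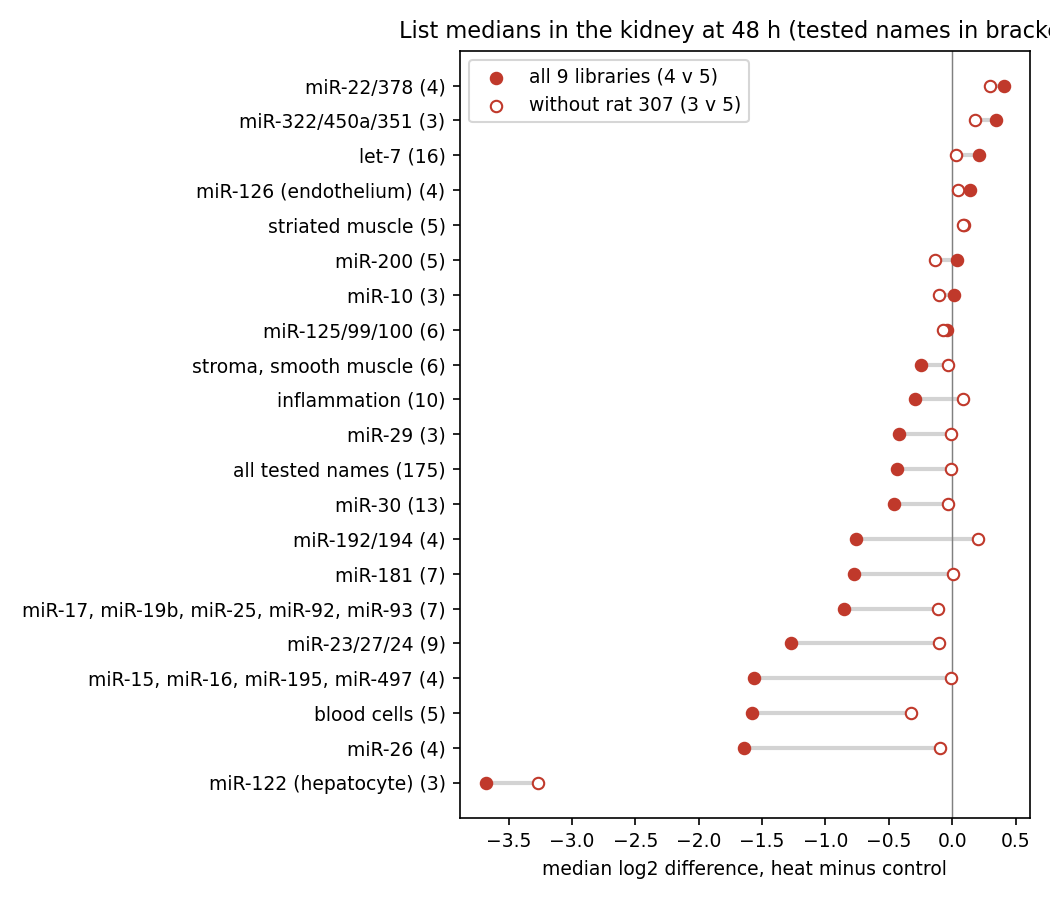
Median log2 difference of heat minus control in the kidney at 48 h for lists of miRNA and for all 175 tested names, with the number of tested names in brackets. Filled points use all 9 libraries and open points leave out rat 307. The miR-26 family, the list of miR-16, miR-195 and miR-497, and that of miR-23, miR-27 and miR-24 lie at -1.64, -1.57 and -1.27 with it and at -0.10, -0.01 and -0.10 without it, and the hepatocyte list lies at -3.68 and -3.27.

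The heat effect at 48 h was also set against that of the earlier time points, which had their own controls. limma called 0 of 175 differences (0%) between 48 h and 24 h, with 6 at an unadjusted p under 0.05, and 0 of 175 (0%) between 48 h and T_c,max, with 7. The smallest adjusted p was 0.336 and 0.541. Without rat 307 it again called 0 in both (0%), with 6 and 7 at an unadjusted p under 0.05 and smallest adjusted p of 0.787 and 0.0984. limma with array weights also called 0 in both, with 6 and 11 at an unadjusted p under 0.05. The difference of miR-31a-5p between heat and control was 0.09 (T_c,max), 0.52 (24 h) and -1.97 (48 h). The effect at 48 h minus that at 24 h was -2.48 (SE 0.69; limma adjusted p = 0.336), which did not pass, and -1.77 (SE 0.51; limma adjusted p = 0.787) without rat 307. The heat minus control differences of miR-205 were -0.05 (T_c,max), 1.74 (24 h) and -2.49 (48 h). Those of miR-122 were 1.45, -1.64 and -3.68 in the same order, and for miR-21 -0.14, 0.68 and 0.68. None of these 48 h effects differed from the earlier ones past the test. Between 48 h and 24 h the difference was -4.23 (SE 1.73; limma adjusted p = 0.651) for miR-205. It was -2.04 (SE 1.79; limma adjusted p = 0.651) for miR-122. Between 48 h and T_c,max it was -5.13 (SE 1.77; limma adjusted p = 0.5415) for miR-122 and 0.82 (SE 0.37; limma adjusted p = 0.901) for miR-21. Without rat 307 the differences at 48 h were -1.247 for miR-31a-5p, -2.55 for miR-205, -3.27 for miR-122 and 0.71 for miR-21.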

How the data were processed

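Small RNA libraries of 4 heat-stressed and 5 control rat kidneys at 48 h were analysed, within 29 kidney libraries of 3 time points. The authors trimmed the reads with cutadapt 2.6, removed low-complexity sequences, collapsed identical reads, mapped them without mismatch to rat miRNA of miRBase release 19, and deposited log2(CPM + 1) values for 185 names, so that the unit is log2. A read with 1 changed base is thus not counted. The handling of strand and of reads with several matches is not given in the sources used here. The deposited table's own time column reads 0 for the 9 kidney libraries that the sample labels place at 48 h; the labels were used.

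Reads were counted back from the value that 1 read takes in a library. Of 385 low kidney values, 385 (100.0%) came out whole to within 0.05 of a read. Total reads are given in the report. The 185 names account for 98.7% to 99.4% of the recovered library totals. A floor of 3 reads was used for names at 0, which covers counting error only. No column of values was left over (0).

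limma 3.58.1 in R 4.3.3 fitted all kidney libraries, using treat with the study's fold-change cutoff, a spread that follows the mean level and an adjusted p under 0.05. The 175 names tested had 5 reads or more throughout some kidney condition. The authors used a count model; limma took its place since the deposited values are not counts. Exact permutation tests were two-sided. Named miRNA were those past the test, the 8 with the smallest limma p per direction in each fit, those whose groups did not overlap, the 10 farthest above and below in rat 307, the first members of each list and the 5 most abundant. Members and lists were chosen with earlier results of these data known. The CA step was chosen after its values were seen. The limma test was tried on simulated libraries with the spread of the 48 h control kidneys. None of them was like that of rat 307, so that the trial does not cover its effect on the fit. Alternatives were median-ratio scaling, no filter, no fold cutoff, other libraries in the fit, array weights, log2(CPM + 5), voom on recovered reads, mature arms alone and leaving out each library. Python 3.11.15, numpy 2.4.6, pandas 2.3.3 and matplotlib 3.10.9 were used. 12 pairs of names had equal values within 0.1 in all 9 libraries (such as miR-126a and miR-126b) and may share reads.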

Additional observations from a re-analysis of the deposited data

Results flagged for a closer look

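Some values stood apart within their group of 4 or 5 libraries, by the gap to the nearest library over the range of the group. Chance gives such a gap in about 1 in 20 groups. Over all 175 names it was met in 67 heat groups, 64 of them by rat 307 and 3 by rat 305, and in 8 control groups, 4 each by rats 311 and 313. Among 27 of the names described, rat 307 stood apart in the heat group for miR-182 at 7.44, miR-192-5p at 12.32, miR-141-3p at 5.47 and miR-451 at 1.53. Rat 305 stood apart for miR-122 at 4.91, miR-3591 at 4.91 and miR-122-5p at 4.74, since the other heat kidneys were at or near 0. Control rat 311 stood apart for miR-351-5p at 9.02.

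The heart library of rat 307, which no comparison above uses, held miR-429, an epithelial miRNA, at 11.79. miR-429 was at 3.25 to 5.19 in the other heat hearts and 2.18 to 4.83 in control hearts of 48 h. miR-141-3p at 10.896, miR-200b-3p at 10.67, miR-182 at 10.09 and miR-10a-5p at 16.61 also lay above every other heart of 48 h. The tubule miRNA did not. miR-192-5p was at 8.89, against 8.24 to 9.76 in the other heat hearts and 8.51 to 9.51 in control hearts. miR-194-5p was at 4.04, below the other heat hearts and within the range of control hearts. In the same library miR-133a-3p, a miRNA of muscle with 2 CA steps, was at 5.84, against 11.52 to 13.35 in the other heat hearts and 13.14 to 13.42 in control hearts. The muscle miRNA miR-1-3p, with no CA step, was low too, at 2.62, against 7.69 to 9.99 in the other heat hearts and 9.15 to 9.79 in control hearts. miR-208a was at 3.49, against 8.97 to 10.78 and 10.22 to 10.79. Against control hearts, the names of this library with a CA step had a median of -0.50 and those without a median of 2.12. The correlation of the deviation with the number of CA steps was -0.33, against -0.71 in the kidney of rat 307. The cause was not tested.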

How the results depend on the processing

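No name was called in any of 19 settings with all 9 libraries, 18 without rat 307, and 5 for each difference between time points. The smallest adjusted p was 0.0546 with all 9, when heat rat 305 was left out, and 0.0893 without rat 307, with no fold cutoff. Counts at an unadjusted p under 0.05 ran from 5, with array weights, to 72, without heat rat 309, and from 2 to 20 without rat 307; array weights gave rat 307 a weight of 0.0046. Leaving out 1 library in turn called 0 to 0 names. Median-ratio scaling moved the median over all names by over 0.1, to -0.01 with all 9, and turned miR-21-3p to 0.11, miR-30a to 0.26 and miR-9a-5p to 0.034. Leaving out 1 library in turn gave -0.10 to 0.085 for miR-10a-5p, -0.074 to 0.15 for miR-10b, -1.04 to 0.25 for miR-192-5p and -0.89 to 0.85 for miR-21-3p with all 9, and -0.084 to 0.37 for let-7c-5p without rat 307. Signs were checked for 27 of the named miRNA, and the rest of these 27 kept theirs. Names outside the 27 could turn too. Leaving out rat 307 took miR-21-5p from -0.31 to 0.07 and miR-194-5p from -1.26 to 0.16. For miR-31a-5p the lowest value was -2.33 with all 9. The difference between names with and without the CA step in rat 307 lay between -4.88 and -4.205 under 4 settings chosen after the data were seen. No paired analysis was possible because heat and control rats share no number and each rat gave 1 kidney library.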
